A study of Mus musculus with 12 samples.

Results

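The genes described here make up the core of the pre-mRNA splicing machinery and the heterogeneous nuclear ribonucleoproteins (hnRNPs), measured in pieces of the embryonic mouse cortex. These families, and the comparison of medial with ventral pieces, were chosen with earlier results of these data known. Within the families, members were taken by name alone: every probe set whose gene symbol in the array's annotation starts with Srsf, Sf3, Snrp, Hnrnp, Prpf or U2af. That rule gave 71 probe sets for 52 genes, out of 12422 probe sets without controls that name 8251 genes where they carry 1 symbol. Of these, 60 probe sets for 50 genes were bright enough to be tested, among 5832 tested in all. The study divided cortical hemispheres of E16.5 mice (embryonic day) into medial, dorsal, ventral, rostral and occipital pieces, and kept a whole hemisphere as the sixth group. Each of the 6 groups was hybridised to 2 Affymetrix mouse U74A arrays, numbered 1 and 2, from separate dissections by the labels. A lateral piece of the protocol text appears as rostral in the sample titles, whose naming was used. Strain, genotype, sex and the number of embryos per dissection are not given in the sources used here, and no treatment is named. With 2 arrays a group, p-values measure only the spread between these arrays.

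Introns are removed from nuclear transcripts by the spliceosome, which assembles on each intron from small nuclear ribonucleoproteins. The Snrp genes encode the proteins of those particles, including the Sm ring that most of them share. U2af proteins recognise the 3′ splice site, and the Sf3 genes encode the SF3a and SF3b complexes that fix the U2 particle on the branch point. Prpf genes encode pre-mRNA processing factors, many of them parts of the tri-snRNP that joins the assembling spliceosome. SR proteins, encoded by the Srsf genes, bind exons and help neighbouring splice sites to be used, whereas hnRNP proteins coat the transcript and often act against them. In the developing brain, dividing progenitors and neurons are known to splice many transcripts differently, and the balance of such general factors with neuronal regulators is a much studied part of that difference.

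The values are average differences, an intensity that falls below 0 when mismatch probes are brighter than the perfect-match ones, and they were analysed as log2 after raising values under 693.5 to that floor. The depth of an array study is its number of arrays, and 2 a group limit the precision of all that follows. The arrays were alike in brightness: their median average difference ran from 737 to 851, and 39.1% to 41.7% of probe sets lay above 1387, which is 2 times the floor. The pieces were read as progenitor-rich or neuron-rich from fixed marker lists. The summed average difference of the cell cycle list was 113646 to 116303 on the medial arrays, 76263 to 99930 on the dorsal, rostral and occipital arrays, and 44525 to 46865 on the ventral arrays. For the neuron list the order was turned, with 255103 to 297662 in medial, 309387 to 377207 in the other 3 pieces and 466128 to 466706 in ventral. The radial glia and intermediate progenitor list gave 134018 to 144356 in medial and 99236 to 99680 in ventral. In the other 3 pieces it gave 100409 to 129411, so its lowest array there was near the ventral ones. Between medial and ventral, 16 of 23 tested cell cycle genes and 9 of 14 radial glia and intermediate progenitor genes were higher in medial, and 15 of 20 neuron genes were higher in ventral (limma, adjusted p under 0.05). Eomes and Neurog2, markers of cortical progenitors, lay at the floor on both ventral arrays. So did 8 of 27 cell cycle genes of the annotation, of which 1 lay at the floor on both medial arrays. Of the 14 radial glia and intermediate progenitor genes, 2 went the other way, 1 of them at an unadjusted limma p under 0.05. In such bulk pieces, fewer cells of a type and less RNA per cell cannot be told apart. Medial and ventral pieces also differ in their place in the hemisphere, which cannot be told apart here from their progenitor and neuron content.

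The sequences shown are promoters of the members with the largest differences that passed the test below, at most 3 a comparison, so that genes that were lowest in the same piece can be set side by side. Promoter windows came from RefSeq (GRCm38.p6) and run from 250 bases before the annotated start through the first 30 bases of the transcript. Of the 52 member genes, 46 had one. Letters are in lower case, with matches to a set of short motifs on either strand in capitals. Those motifs were the TATA box (TATAAA), the CCAAT box, the ETS core (CCGGAAG), the Sp1 GC box (GGGCGG), part of the NRF1 motif (GCGCATG), a YY1 motif (AAGATGG) and a pair of E2F motifs (TTTCGCG on the one hand and GCGGGAA on the other). The 4 windows below belong to Prpf31 (chr7:3629735-3630014), Sf3b6 (chr12:4817358-4817637), U2af1l4 (chr7:30563090-30563369) and Srsf4 (chr4:131873387-131873666, 1 of 3 windows of that gene), all on the plus strand, 5′ to 3′.
Prpf31: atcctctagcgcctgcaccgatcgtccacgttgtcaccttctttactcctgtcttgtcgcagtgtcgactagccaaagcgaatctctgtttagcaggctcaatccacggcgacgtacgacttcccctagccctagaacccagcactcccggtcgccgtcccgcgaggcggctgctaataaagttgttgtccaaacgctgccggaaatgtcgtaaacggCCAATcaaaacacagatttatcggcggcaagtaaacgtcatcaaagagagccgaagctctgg
Sf3b6: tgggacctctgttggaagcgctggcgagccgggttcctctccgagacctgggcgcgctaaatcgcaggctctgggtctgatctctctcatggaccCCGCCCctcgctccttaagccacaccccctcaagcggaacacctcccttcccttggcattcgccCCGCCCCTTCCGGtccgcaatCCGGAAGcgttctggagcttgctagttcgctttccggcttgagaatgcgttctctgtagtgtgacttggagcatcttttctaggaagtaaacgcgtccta
U2af1l4: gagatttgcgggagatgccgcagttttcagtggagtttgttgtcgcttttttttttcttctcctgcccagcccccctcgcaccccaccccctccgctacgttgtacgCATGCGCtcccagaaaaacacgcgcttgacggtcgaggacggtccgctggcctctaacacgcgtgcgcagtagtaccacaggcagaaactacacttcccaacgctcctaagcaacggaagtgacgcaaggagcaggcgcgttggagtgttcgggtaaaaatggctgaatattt
Srsf4: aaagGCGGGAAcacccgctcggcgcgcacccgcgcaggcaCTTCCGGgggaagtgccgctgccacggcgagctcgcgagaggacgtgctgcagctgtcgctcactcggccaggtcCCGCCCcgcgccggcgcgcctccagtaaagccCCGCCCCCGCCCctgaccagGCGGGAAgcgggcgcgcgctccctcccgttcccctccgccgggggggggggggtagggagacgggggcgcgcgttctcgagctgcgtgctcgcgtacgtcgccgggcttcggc

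No motif of the set was in all 4 windows, and Sf3b6 and Srsf4 both held the ETS core and the GC box. The window of Prpf31 held a CCAAT match that begins 32 bases before the start and none of the others. In the Sf3b6 window, ETS core matches lay at -70 and, on the other strand, at -85, directly after a GC box at -91, with a further GC box at -155. U2af1l4 carried only the partial NRF1 motif, at -143, and Srsf4 carried an ETS core at -210, GC boxes at -135, -103 and -97, the last pair side by side, and the E2F letters GCGGGAA at -246 and -83. Hnrnpm also passed the test, with the smallest difference of the 4 in each comparison, and its window, not shown, held a TATA box match and none of the other motifs. Over the members with a window, the ETS core was found in 17 of 46 (37.0%), against 8.70% of 27025 promoters of the same length. The GC box was found in 31 of 46 (67.4% against 34.9%), CCAAT in 23 (50% against 36.6%) and GCGGGAA in 7 (15.2% against 4.33%). The TATA box was found in 5 (10.9% against 13.7%). The partial NRF1 motif, the YY1 motif and the E2F motif TTTCGCG were found in 1 each (2.17%, against 3.84%, 5.74% and 0.814% of all). Member windows also had more G and C, with a median of 60.2% against 52.5%. Base composition alone moves the share of such matches, a match is not a binding site, and the part of either in the expression values was not tested.

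Across the 12 arrays the splicing and hnRNP probe sets were lowest in the ventral piece. For each array, the median over the 60 tested members of the deviation from the probe set's own 12-array mean was taken on the log2 scale. It was -0.17 and -0.27 on ventral replicates 1 and 2, the lowest values of the 12. It was 0.18 and 0.02 in medial, 0.14 and 0.04 in dorsal, 0.07 and 0.02 in rostral, 0.06 and -0.11 in occipital, and 0.14 and -0.08 in the whole hemisphere. Over all 5832 tested probe sets the same median stayed between -0.02 and 0.02. On the ventral arrays only 10 and 3 of the 60 members lay above their own mean, compared with 51 and 34 in medial, 50 and 36 in dorsal, 40 and 35 in rostral, and 41 and 16 in occipital. The ventral arrays thus stood apart from the other 4 pieces in both replicates, whereas the arrays of those 4 pieces overlapped one another. Replicate 1 was above replicate 2 in all 6 groups.

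**Figure D1:**
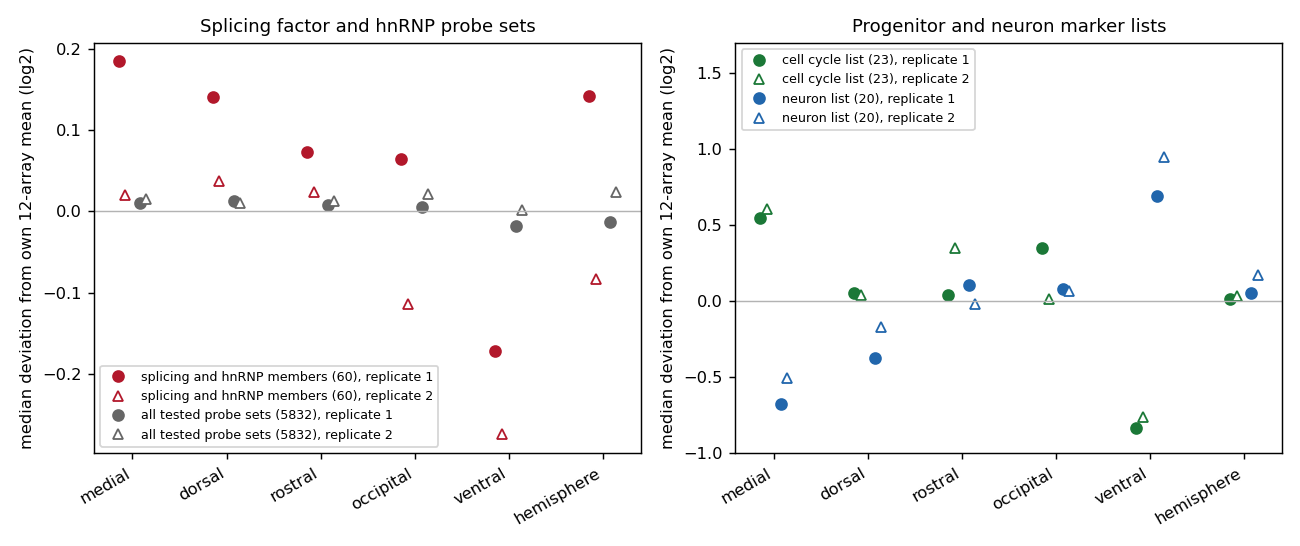
Left, median deviation (log2) of each array from the 12-array mean, for the 60 splicing and hnRNP members and for all 5832 tested probe sets; right, the same for the 23 cell cycle and 20 neuron genes. Circles are replicate 1 and triangles replicate 2: members lie lowest on the ventral arrays (-0.17 and -0.27), and replicate 1 lies above replicate 2 in each group, while the cell cycle list runs from -0.83 in ventral to 0.60 in medial.

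The marker lists moved over a wider range than the members did, and not in the same order outside the ventral piece. On the ventral arrays the median deviation was -0.83 and -0.76 for the cell cycle list and 0.69 and 0.95 for the neuron list. On the medial arrays it was 0.55 and 0.60 for the cell cycle list and -0.68 and -0.50 for the neuron list. The cell cycle list of medial replicate 2 (0.60) was far above that of dorsal replicate 2 (0.04), but the members of those arrays lay at 0.02 and 0.04. Rostral and occipital pieces differed little: the members' median difference, rostral minus occipital, was 0.02 in replicate 1 and 0.09 in replicate 2. Markers of other cells were compared between the ends of the range. The 6 blood markers of the annotation, of which 3 passed the filter, had a summed average difference of 103958 to 123408 in ventral and 103416 to 111031 in medial. The 8 endothelial markers gave 10276 to 10567 against 8796 to 10214, and the 7 microglial markers 6308 to 7684 against 5404 to 5410.1. The 7 choroid plexus and meninges markers gave 7284 to 8100.0 in ventral and 8409 to 16225 in medial. At the floor on both ventral arrays were 3 of the 6 blood markers of the annotation (Hbb-y, Epb42, Hbb-bh1), 4 of 8 endothelial ones (Cdh5, Pecam1, Tek, Vwf), 3 of 7 microglial ones (Tyrobp, Aif1, Itgam) and 4 of 7 choroid plexus and meninges ones (Ttr, Dcn, Col3a1, Lum). The same blood, endothelial and microglial markers, with Col3a1 and Lum but not Ttr and Dcn, lay at the floor on both medial arrays. The part of these cells in the members' shift was not tested.

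The comparison of medial with ventral sets the progenitor-rich piece against the neuron-rich one. Prpf31, Sf3b6, U2af1l4 and Hnrnpm were higher in medial, by 1.44-fold to 1.79-fold, and no member was lower. That is 4 of 60 (6.67%), against 6.05% of all tested probe sets higher and 5.2% lower (limma, adjusted p under 0.05), so in this fit the share of members passing the test was near the background. At an unadjusted p under 0.05, 16 members were higher and 0 lower, where all tested probe sets gave 13.5% and 10.9%. With the replicate number as a block, 12 members were higher at an adjusted limma p under 0.05, against 579 of all 5832 tested. The members differed from the rest in the centre of their distribution. Their median difference was 0.36 on the log2 scale (1.28-fold; quartiles 0.18 and 0.53), against 0.04 over all tested probe sets, with 53 of 60 above 0 against 53.0%. The median was 0.42 in replicate 1 and 0.32 in replicate 2, and 49 members were above 0 in both replicates (39.9% of all tested). Both medial arrays exceeded both ventral arrays for 40 of 60 members (28.7% of all), and lay below both for 0 members (25.3% of all). Counted once per gene, with the brighter probe set, the median was 0.38 over 50 genes.

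The count of 4 moved when single arrays were left out. It was 0 without medial replicate 2 or ventral replicate 1, and 2 when ventral replicate 2 was left out. The count over all 5832 tested probe sets fell as well, from 353 to 137, 120 and 146 in that order. Leaving out a dorsal, rostral, occipital or hemisphere array left the median difference medial minus ventral at 0.36. There the count moved only through the estimate of the spread, alike for either array of the group. The median moved less, from 0.27 without medial replicate 1 to 0.42 without medial replicate 2. Members were also bright: 51 of 60 were above the filter level on all 12 arrays, compared with 3942 of 5832 probe sets.

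**Figure D2:**
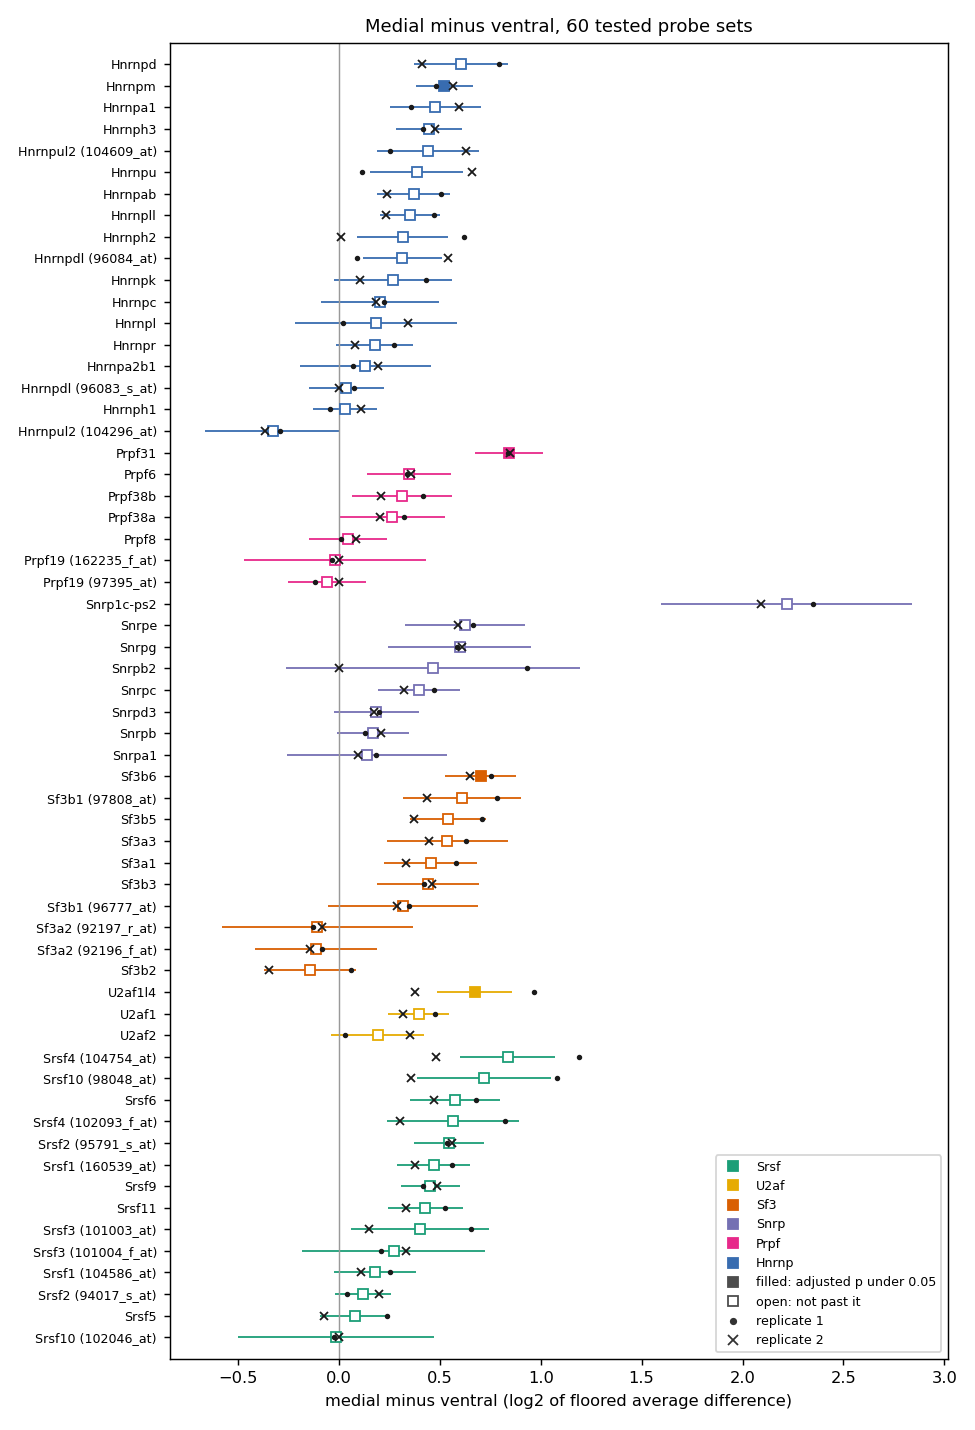
Difference medial minus ventral (log2) for each of the 60 tested members, grouped by name family; squares with bars are the fitted difference and its standard error, filled where the adjusted p is under 0.05, and dots and crosses are replicates 1 and 2. Of the 60 squares 53 lie right of 0, and 4 are filled.

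Among the branch point and splice site factors, the gene with the clearest change was Sf3b6, which encodes the small SF3b protein that contacts the branch adenosine. Its average difference was 15507 and 13263 in medial, 9191 and 8451 in ventral, 13369 and 12583 in dorsal, 12002 and 12134 in rostral, 11709 and 11450.2 in occipital, and 16281 and 12306.5 in the hemisphere, replicate 1 given before replicate 2 here and below. Both ventral arrays were below the other 10. The means were 14385 ± 1586 in medial and 8821 ± 523 in ventral (SD, n = 2), a difference of 0.70 ± 0.18 (log2 ± SE; 1.63-fold; limma, adjusted p = 0.0348). U2af1l4, a relative of the small U2AF subunit that reads the end of the intron, was measured at 3807 and 3044 in medial, 1948 and 2344 in ventral, 3039.9 and 3496 in dorsal, 2828 and 3127 in rostral, 2738 and 2870.4 in occipital, and 3367.5 and 3896 in the hemisphere. Its ventral arrays were again the lowest of the 12. The difference was 0.67 ± 0.18 (1.59-fold; limma, adjusted p = 0.0492), with 3425 ± 539.5 in medial and 2146 ± 280.1 in ventral (SD, n = 2). It was 0.97 in replicate 1 and 0.38 in replicate 2. Sf3b6 and U2af1l4 each kept an adjusted p under 0.05 in 2 of 12 fits that leave out 1 array, those without a hemisphere array. The highest adjusted p of the others was 0.198 for Sf3b6 and 0.270 for U2af1l4.

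The other members of these families gave no difference past the threshold. Differences medial minus ventral of the 10 Sf3 probe sets had a median of 0.45, and 7 of 10 were above 0. Sf3b5, a further small SF3b protein, had 9803 and 7979 in medial and 6002 and 6170.1 in ventral, with no overlap (0.54 ± 0.19, adjusted p = 0.112). Sf3a3, an SF3a subunit, gave 6569 and 4262 against 4248 and 3129 (0.54 ± 0.30, adjusted p = 0.324). Sf3a2, which ties SF3a to the U2 particle, gave differences near 0 from both of its probe sets (-0.11 ± 0.30 and -0.11 ± 0.47). The brighter of these, which can match related sequences, read 19873 and 12283 in medial and 21073 and 13570 in ventral, so its replicates were further apart than its pieces. U2af1, the small U2AF subunit, was 10949 and 10236 in medial and 7882 and 8223 in ventral (0.40 ± 0.15, adjusted p = 0.143), and U2af2, the large subunit that binds the pyrimidine tract, was 34171 and 38994.5 against 33429 and 30519 (0.19 ± 0.23, adjusted p = 0.679).

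Of the tri-snRNP and processing factors, Prpf31 had the lowest adjusted p of all members. Prpf31 encodes a protein of the tri-snRNP and is known as a retinitis pigmentosa gene. Its average difference was 3980.2 and 4645 in medial, 2229 and 2582 in ventral, 3274 and 3527 in dorsal, 3074 and 3650.3 in rostral, 3656 and 3593 in occipital, and 3367 and 3651 in the hemisphere. Ventral arrays were the lowest, and medial arrays the highest of all 12. The difference medial minus ventral was 0.84 ± 0.17 (1.79-fold; limma, adjusted p = 0.0148), 0.84 in replicate 1 and 0.85 in replicate 2, with means of 4313 ± 470.3 and 2405.5 ± 249 (SD, n = 2). It lost the threshold without medial replicate 2 (adjusted p = 0.101) or ventral replicate 1 (adjusted p = 0.107). The 7 Prpf probe sets had a median of 0.26, and 5 of 7 were above 0. Prpf6, another tri-snRNP protein, read 10509 and 10137 in medial against 8310 and 7926 in ventral (0.35 ± 0.21, adjusted p = 0.359). Prpf8, the large protein at the catalytic centre of the spliceosome, was 7328 and 7532 against 7283.5 and 7112 (0.05 ± 0.19, adjusted p = 0.917). Prpf19, the ubiquitin ligase at the centre of the Prp19 complex, gave -0.06 ± 0.19 and -0.02 ± 0.45 from its 2 probe sets. The former read 13750 and 11739 in medial and 14912 and 11746 in ventral, and all 4 values of the latter were under 1387.

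The snRNP proteins as a family had 8 of 8 differences above 0 and a median of 0.43, with none past the threshold and 1 at an unadjusted limma p under 0.05. Snrpe and Snrpg, which encode 2 proteins of the Sm ring, differed by 0.63 ± 0.30 and 0.60 ± 0.35 (adjusted p = 0.241 and 0.353). Snrpe was 27959 and 20234 in medial and 17641 and 13458 in ventral, with no overlap between the pieces, by a probe set that can match related sequences. Snrpg read 18592 and 13095 in medial and 12391 and 8575 in ventral, again without overlap. Snrpb, the Sm protein whose close relative Snrpn is known from neurons, was 39136 and 40263 against 35814 and 34797 (0.17 ± 0.18, adjusted p = 0.638). Snrpc, of the U1 particle that reads the 5′ splice site, was 7885 and 6472 against 5687 and 5184 (0.40 ± 0.20, adjusted p = 0.285), and Snrpa1 of the U2 particle gave 0.14 ± 0.40 (adjusted p = 0.879). The name rule also takes in Snrp1c-ps2, a pseudogene symbol on a probe set that can match related sequences. It read 3529 and 2957 in medial and -2414 and -1524 in ventral, that is, at the floor, so the medial level was at least 4.66-fold higher, with an adjusted p of 0.0535. Without it the median over the other 59 members was 0.35.

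SR protein genes gave 13 of 14 differences above 0 and a median of 0.44, with none past the threshold and 6 at an unadjusted limma p under 0.05. Srsf4, which encodes a long SR protein, came closest, with 4278 and 4320.3 in medial and 1874 and 3096 in ventral by its brighter probe set (0.84 ± 0.24, adjusted p = 0.0546). The other Srsf4 probe set gave 0.56 ± 0.33 (adjusted p = 0.344). Srsf9, a short SR protein, was 8208 and 8705.5 against 6139.9 and 6208 (0.45 ± 0.15, adjusted p = 0.0894). Srsf6 was 11678 and 10206 against 7295 and 7376 (0.57 ± 0.22, adjusted p = 0.149), and Srsf1, the best known of the family, gave 0.47 ± 0.18 (adjusted p = 0.145) and 0.18 ± 0.20 from its 2 tested probe sets. Srsf2, the SR protein also called SC35, was split: 1 probe set read 19332 and 20103 against 13329 and 13657 (0.55 ± 0.17, adjusted p = 0.0839), and the brighter read 42765 and 46263 against 41610.4 and 40323 (0.12 ± 0.14, adjusted p = 0.676). The probe sets of Srsf10, an SR protein that represses splicing when dephosphorylated, gave 0.72 ± 0.33 and -0.01 ± 0.49, the second with all 4 values under 1387. The difference of Srsf5 was smaller (0.08 ± 0.17, adjusted p = 0.839). Over the 10 genes with 2 tested probe sets, both had the same sign for 8.

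The hnRNP genes had 17 of 18 differences above 0, with a median of 0.32. Hnrnpm, an hnRNP known for regulating alternative exons, read 12859 and 13252 in medial, 9212 and 8966 in ventral, 11275 and 12657 in dorsal, 12649 and 12336 in rostral, 12994 and 14066.5 in occipital, and 11424 and 11465 in the hemisphere. The ventral arrays were the lowest of the 12, and occipital rather than medial had the highest mean. The difference medial minus ventral was 0.52 ± 0.14 (1.44-fold; limma, adjusted p = 0.0485), with 13056 ± 278 in medial and 9089 ± 174 in ventral (SD, n = 2). It kept an adjusted p under 0.05 in 2 of 12 fits without 1 array, those without a hemisphere array, and the adjusted p reached 0.194 without medial replicate 2. Hnrnpd (AUF1), which binds AU-rich elements, was 16839 and 13353 against 9717 and 10032.5 (0.60 ± 0.23, adjusted p = 0.147). Hnrnpa1, a classical antagonist of SR proteins, was 2615 and 2194 against 2040.4 and 1452 (0.48 ± 0.23, adjusted p = 0.239). The arrays of both pieces overlapped for the next pair. Hnrnph1, which binds G-runs, was 23809 and 21841 against 24589 and 20244 (0.03 ± 0.16, adjusted p = 0.934), and Hnrnpa2b1, known for RNA transport as well as splicing, was 27074 and 22089 against 25803 and 19337 (0.13 ± 0.32, adjusted p = 0.860). Hnrnpul2 gave opposite signs from its 2 probe sets, -0.33 ± 0.33 and 0.44 ± 0.25.

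**Figure D3:**
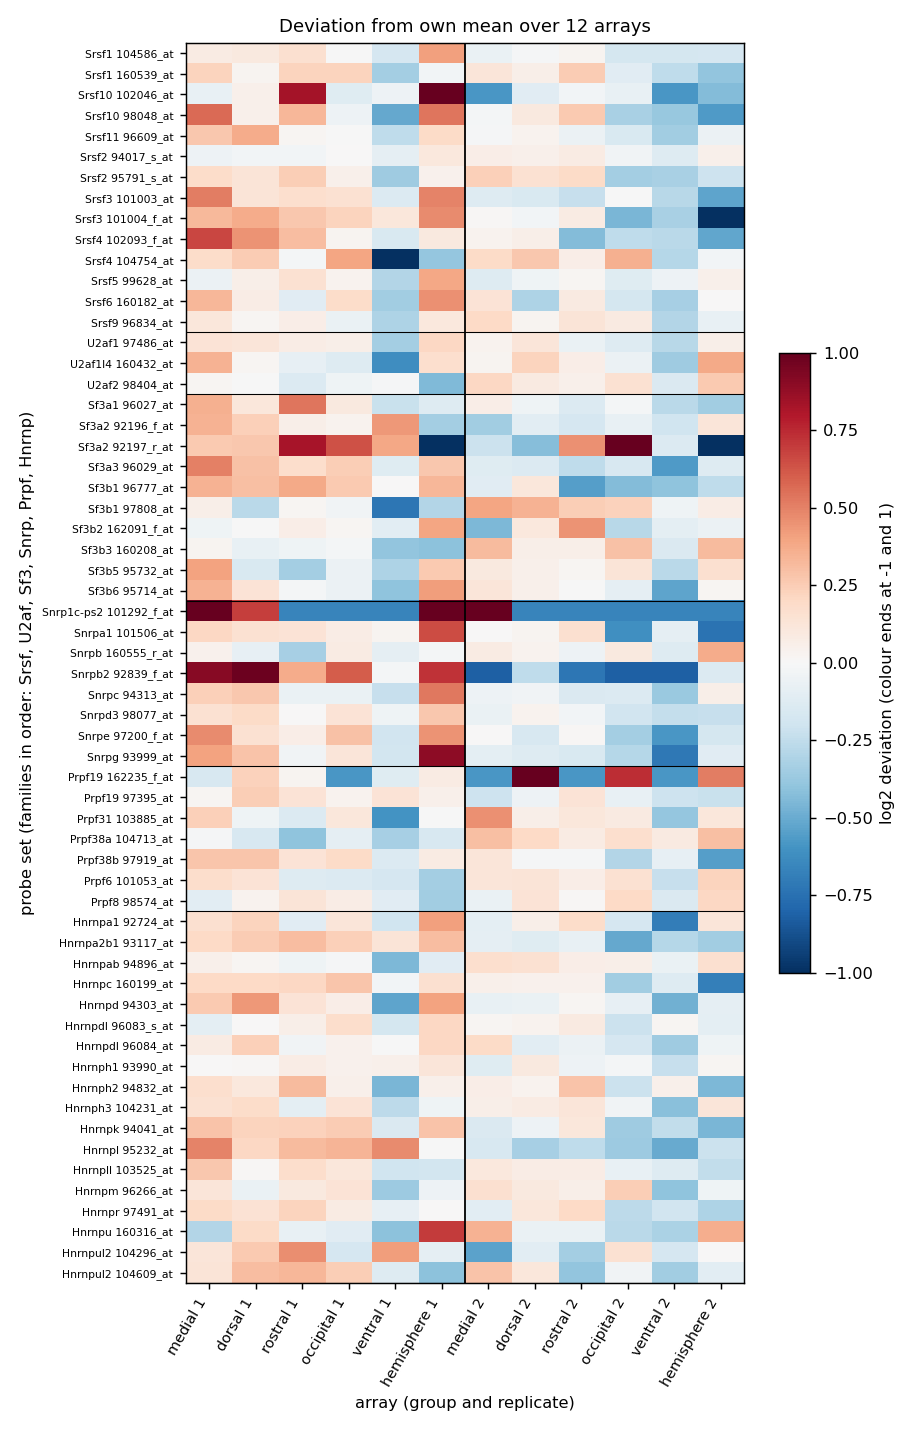
Deviation of each of the 60 tested members (rows, by name family) from its own 12-array mean on the log2 scale, over the 12 arrays (columns). The ventral columns are mostly below the mean (10 and 3 of 60 members above it), and by the median over rows replicate 1 columns lie higher than replicate 2 columns of the same group.

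The ventral piece was then set against the mean of the other 4 pieces, which shares arrays with the comparison above. Prpf31, Hnrnpm, Sf3b6 and Srsf4 were lower in ventral, and 0 members were higher (limma, adjusted p under 0.05). These 4 of 60 (6.67%) stand against 5.54% of all tested probe sets lower and 4.25% higher. At an unadjusted p under 0.05, 13 members were lower and 0 higher, with 13.2% and 9.83% over all. With the replicate number as a block, 10 members were lower at an adjusted limma p under 0.05, against 540 of all 5832 tested. The median difference, ventral minus the others, was -0.30 (1.23-fold), against -0.02 over all tested probe sets, with 58 of 60 members below 0 (52.2% of all) and 2 above (47.8% of all). It was -0.34 in replicate 1 and -0.27 in replicate 2, with 50 members below 0 in both (39.5% of all). For 24 of 60 members both ventral arrays lay below all 8 arrays of the other pieces (13.8% of all), and for 0 they lay above all 8 (10.7% of all). These 24 were spread over the families: 7 Srsf, 7 Hnrnp, 3 Sf3, 3 Prpf, 2 Snrp and 2 U2af probe sets. The arrays were ordered by values before the floor was applied. Snrp1c-ps2 is among the 24, though it was under the floor on both ventral arrays and on 5 of the 8 others. The ventral piece had the lowest mean of the 5 pieces for 47 of 60 members (78.3%), against 34.5% of all tested probe sets. Snrp1c-ps2 was counted there although its ventral, rostral and occipital means were tied at the floor. The highest mean was in medial for 24 (40%, against 27.6% of all tested) and in rostral for 16 (26.7% against 10.2%). It was in dorsal for 13 (21.7% against 17.7%), occipital for 5 (8.33% against 13.2%) and ventral for 2 (3.33% against 31.3%).

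**Figure D4:**
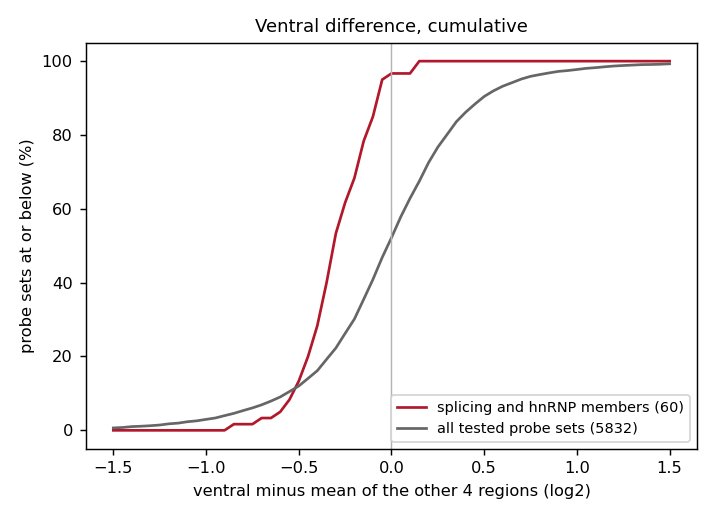
Cumulative share (%) of probe sets at or below each difference, ventral minus the mean of the other 4 pieces (log2), for the 60 members and all 5832 tested probe sets. The member curve has risen nearly to its top by 0 (58 of 60 below), but the curve of all probe sets is wider on both sides.

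Srsf4 had the largest ventral difference of the members. Its brighter probe set read 1874 and 3096 in ventral and 4278 and 4320.3 in medial, 4512 and 4552 in dorsal, 3730.3 and 3957 in rostral, 4973 and 4837 in occipital, and 2885 and 3713 in the hemisphere. Both ventral arrays were below the 8 of the other pieces, but 1 hemisphere array was below the higher ventral one. The difference was -0.86 ± 0.19 (1.82-fold; limma, adjusted p = 0.0221), with 2485 ± 864 in ventral (SD, n = 2) and 4395 ± 418 over the other pieces (SD, n = 8). It was -0.50 (adjusted p = 0.241) without ventral replicate 1. The other Srsf4 probe set, which can match related sequences, gave -0.32 ± 0.26 (adjusted p = 0.535). The differences of Prpf31, Hnrnpm and Sf3b6 were -0.61 ± 0.13, -0.49 ± 0.11 and -0.53 ± 0.14 (limma, adjusted p = 0.0228, 0.0283 and 0.0476), and that of U2af1l4 was -0.54 ± 0.15 with an adjusted p of 0.0513. The count of 4 was 0 without ventral replicate 1, fell to 1 if either ventral replicate 2 or dorsal replicate 2 was left out, and 2 without dorsal replicate 1, rostral replicate 1 or either medial array. Leaving out ventral replicate 1 gave a median of -0.35, and leaving out ventral replicate 2 gave -0.23. Ventral replicate 1 had the lowest ratio of 5′ to 3′ signal of the 10 arrays of pieces, 0.665 for actin and 0.982 for GAPDH, whereas ventral replicate 2 had 0.856 and 1.09.

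**Figure D5:**
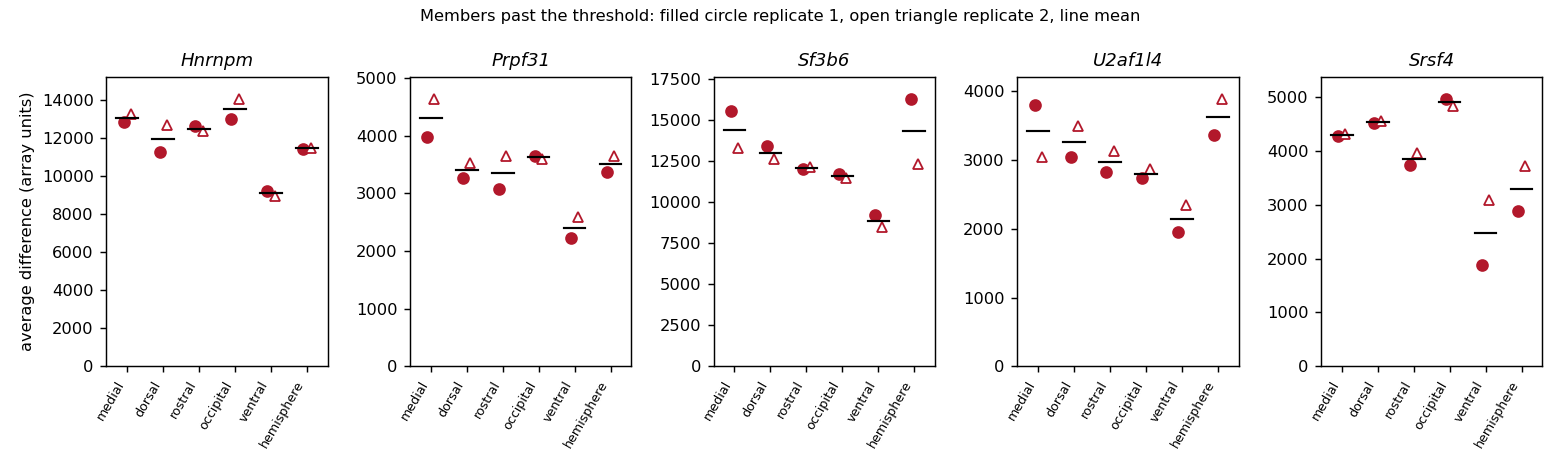
Average difference of the 5 members past the threshold in either comparison, by group; each point is an array and the vertical axis starts at 0. The 2 ventral points are below all points of the other 4 pieces in every panel.

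The ventral difference was shared by the families, with medians of -0.38 for Snrp, -0.35 for U2af, -0.34 for Srsf, -0.33 for Sf3, -0.26 for Hnrnp and -0.20 for Prpf. The numbers below 0 were 8 of 8, 3 of 3, 14 of 14, 9 of 10, 17 of 18 and 7 of 7. The 2 members above 0 were probe sets of Hnrnpul2 (0.14 ± 0.26) and Sf3a2 (0.12 ± 0.24), chosen for mention after their values were seen. A further 7 probe sets carry several symbols of which at least 1 belongs to these families. All 7 were tested with limma, none passed the threshold, 1 had an unadjusted p under 0.05, and their differences ran from -0.56 to 0.08.

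The medial piece set against the other 4 gave a smaller shift. With limma, 0 members were higher and 0 lower at an adjusted p under 0.05, where 0.514% and 0.754% of all tested probe sets passed. At an unadjusted p under 0.05, 4 were higher and 0 lower (6.77% and 7.12% of all). The median was 0.16 (all tested 0.02), and 49 of 60 were above 0 (52.9% of all). It rested in part on medial replicate 1, since it was 0.05 without that array and 0.19 without medial replicate 2. Both medial arrays lay above all 8 others for 2 members (4.96% of all) and below all 8 for 0 (5.47% of all). The lowest adjusted p was 0.0863, for Snrp1c-ps2, which was at the floor on 7 of the 8 other arrays. Prpf31 followed at 0.45 (adjusted p = 0.156). Without either hemisphere array, 1 member passed. The F-test over the 5 pieces likewise passed for 0 members, against 3.26% of all tested probe sets, and for 7 (15.0% of all) at an unadjusted p under 0.05. The 7 were Prpf31, Srsf4, Hnrnpm, Snrp1c-ps2, Sf3b6, U2af1l4 and a probe set of Srsf2, and 1 passed the adjusted threshold without either hemisphere array.

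The arrays numbered 1 and 2 differed in these genes over all 6 groups. In a fit with the group as a block, 9 of 60 members (15%) were higher in replicate 1 and 2 were lower, against 7.44% and 9.77% of all tested probe sets (limma, adjusted p under 0.05). Their median difference was 0.17, against 0.00 over all tested, with 43 of 60 above 0 (49.6% of all) and 17 below (50.4% of all). At an unadjusted p under 0.05, 20 were higher and 4 lower (16.9% and 19.3% of all). The Snrp family had the largest median (0.42), and the Prpf (-0.15) and U2af (-0.09) families had medians below 0. The 9 that were higher were Snrpb2 (1.19), Hnrnpl (0.61), a probe set of Sf3b1 (0.54), Snrpg (0.50), Hnrnpa2b1 (0.48), the second Srsf4 probe set (0.46), Sf3a3 (0.45), Snrpe (0.41) and Hnrnpk (0.38), each in 6 of 6 groups. Prpf38a (-0.38) and the other Sf3b1 probe set (-0.42) were lower in 6 of 6 groups. Snrpb2, a protein of the U2 particle, read 1205 to 2416 in replicate 1 and 332 to 1112 in replicate 2 with no overlap, some of the latter values under the floor. Its tested probe set can match related sequences. Sf3b1, the large SF3b protein and a frequent target of mutation in blood cancers, therefore moved both ways. One of its probe sets read 2855 to 3704 in replicate 1 and 1939.9 to 3080.5 in replicate 2 (0.54 ± 0.11, adjusted p = 0.0186), and the other read 3071 to 5285.5 and 4923 to 6662 (-0.42 ± 0.09, adjusted p = 0.0237). The ratio of 5′ to 3′ actin signal was 0.604 to 0.831 on replicate 1 arrays and 0.804 to 0.887 on replicate 2 arrays, lower in replicate 1 in every group, and its part in these differences was not tested. The count of 9 was 4 without either medial array and 5 without either dorsal array, and the count of 2 was 0 without any 1 medial, dorsal or ventral array. Within each replicate number the medial minus ventral and ventral medians kept their sign, as given above.

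Other genes of RNA processing were taken from lists built for this tissue. Between medial and ventral, 6.05% of all tested probe sets were higher in medial and 5.2% lower (limma, adjusted p under 0.05). At an unadjusted limma p under 0.05 it was 13.5% and 10.9%. At that level 10 of 38 further spliceosome genes, 5 of 21 hnRNP-like genes and 4 of 9 exon junction and export genes were higher. None of these lists had a gene lower at that level. Of 38 further spliceosome genes tested, 2 were higher in medial than in ventral and 0 lower, with a median of 0.29 (limma, adjusted p under 0.05). They were Crnkl1, with 1936 ± 102 against 957 ± 31.3 (SD, n = 2; 1.02 ± 0.14, adjusted p = 0.00340), and Syf2, with 2860.0 ± 221 against 1519 ± 311 (0.93 ± 0.19, adjusted p = 0.0169), both partners of the Prp19 complex. None of 16 SR-like proteins and SR kinases passed, and 0 had an unadjusted limma p under 0.05 (median 0.20). Among 21 hnRNP-like RNA-binding proteins 2 were higher and 0 lower (median 0.26), namely Fubp1, a reader of single-stranded DNA and RNA elements (0.81 ± 0.17, adjusted p = 0.0191), and Ewsr1 (0.58 ± 0.16, adjusted p = 0.0443). Nxt1, a cofactor of mRNA export, was the 1 of 9 exon junction and export genes that was higher (0.69 ± 0.19, adjusted p = 0.0472; list median 0.38). Among regulators of neuronal splicing 0 of 9 were higher and 1 was lower, with a median of 0.09 (1 and 2 at an unadjusted p under 0.05). That gene was Celf4, at 6586 ± 345 in medial and 19301 ± 350.1 in ventral (SD, n = 2; -1.55 ± 0.16, adjusted p = 0.00119), measured by a probe set that can match related sequences. Ptbp2, the polypyrimidine tract protein of young neurons, did not pass, with 10932 ± 59.1 against 10045 ± 1007 (SD, n = 2; 0.13 ± 0.20, adjusted p = 0.769). Ptbp1 and Snrnp70 were not analysed here.

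Of the 71 member probe sets, 11 were not tested because fewer than 2 arrays exceeded 1387. They are 1 probe set each of Hnrnpa2b1, Hnrnpab, Hnrnpdl, Hnrnpu, Snrpb and Snrpb2 and 2 of Srsf1, all genes with another tested probe set, and the probe sets of Prpf39 (2) and Prpf4b (1), which leave those genes without a value. By family the tested probe sets were 14 of 16 Srsf, 10 of 10 Sf3, 8 of 10 Snrp, 18 of 22 Hnrnp, 7 of 10 Prpf and 3 of 3 U2af.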

How the data were processed

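Total or poly(A)+ RNA (the labels give the former, their protocol the latter) of 12 samples was hybridised to U74A arrays, each scanned 2 times, per the labels' protocols. Deposited were average differences of the probe sets, an intensity on a linear scale that averages perfect-match minus mismatch signals. The authors had scaled each array: as deposited, the 2% trimmed means lie between 2501.6 and 2501.9. Software and its version are not given in the sources used here.

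Of 12488 probe sets, 66 controls were left out. Values under 693.5, the root mean square of the negative values, were raised to it before log2. Probe sets above 1387 on at least 2 of 12 arrays were tested (5832, 46.9%). The platform annotation gives 5292 of these 1 symbol, 212 several and 328 none, and 71 of 71 members matched RefSeq (GRCm38.p6). Suffixes follow Affymetrix: probe sets ending in f, s or r may match related sequences or broke a design rule. Beside those marked above, the fainter Prpf19 probe set ends in f and both Srsf2 probe sets in s. The tested Snrpb and the fainter Sf3a2 probe sets end in r. All 12 arrays entered 1 fit with a mean per group in R 4.3.3 and limma 3.58.1 (6 residual and 2.86 prior degrees of freedom). Replicates 1 and 2 were compared with the group as a block (5 and 3.00). Two-sided p-values were adjusted over all tested probe sets (Benjamini-Hochberg), with a threshold of 0.05. The procedure was tested on simulated data. Folds come from floored log2 means. Named are members past the threshold in a comparison between pieces, the brightest and least different of each family, and further members chosen after their values were seen. The members and lists were chosen with earlier results of these data known.

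Alternatives were other floors, an arcsinh scale, quantile normalization, other filters, trend and robust variances, only the arrays compared, 1 probe set per gene, a replicate block, no rostral and occipital arrays, and leaving out each array.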

Additional observations from a re-analysis of the deposited data

How the results depend on the processing

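Under the alternatives tried, the members' median kept its sign in the 3 comparisons of pieces. Medial minus ventral it was 0.32 to 0.38, and 0.27 to 0.42 leaving out each array. For ventral minus the other 4 it was -0.36 without the rostral and occipital arrays, and -0.35 to -0.23 leaving out each array. For medial minus the other 4 it was 0.048 to 0.19 leaving out each array. Counts of members depended more on the choices. Of members higher in medial than ventral (4 of 60 as reported, and 353 of all 5832 tested), there were 7 with 2 times the floor (317 of all), 1 with only the arrays compared (187 of all), 1 without the rostral and occipital arrays (298 of all), and 0 to 6 leaving out each array. Of members lower in ventral than the other 4 (4 as reported, and 323 of all), there was 1 without the rostral and occipital arrays (302 of all), and 0 to 5 leaving out each array. Of members higher in medial than the other 4 (0 as reported) there was 1 on the arcsinh scale and 1 with only the arrays compared, and 0 to 1 leaving out each array. The F-test passed for 1 member on the arcsinh scale, 1 with no filter and 1 with only the arrays compared, and for 0 to 1 leaving out each array. Members higher in replicate 1 (9 as reported) numbered 2 with no filter, 4 without the rostral and occipital arrays and 4 to 10 leaving out each array, and members lower (2) numbered 1 with no filter and 0 to 2 leaving out each array. With no filter more probe sets are adjusted for, and with only the arrays compared fewer arrays give the spread. The cause of the other shifts was not tested. A lone array left in a group is assumed to vary like the other groups.

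Equal replicate numbers share only a number in the labels. Correlations of the replicate differences between groups ran from -0.06 to 0.56 over all tested probe sets, below 0 for rostral with occipital only, so the numbers were not treated as pairs. With the replicate block, 12 of 60 members were higher in medial than ventral (579 of all 5832 tested), 10 were lower in ventral than the other 4 (540 of all), 1 was higher in medial than the other 4 (113 of all), and the F-test passed for 1 (442 of all).

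Differences near 0 turned sign. Prpf19 by its fainter probe set was 0.16 with 0.5 times the floor and 0.086 on the arcsinh scale. Leaving out each array, medial minus ventral ran from -0.077 to 0.34 for Hnrnpa2b1, -0.11 to 0.17 for Hnrnph1, -0.23 to 0.11 and -0.25 to 0.21 for Prpf19, -0.46 to 0.23 and -0.37 to 0.15 for Sf3a2, and -0.28 to 0.25 for the fainter Srsf10 probe set.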
